A study of Homo sapiens with 9 samples.

Results

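The places described here were the peaks of streptavidin ChIP-seq that fell in 5 windows of chromosome 19 (hg19) set by position alone as clusters of KRAB zinc finger genes. In the order of the chromosome the windows ran from 20 to 24.5 Mb (window A), 36.5 to 38.5 Mb (B), 44.2 to 45 Mb (C), 52.4 to 54 Mb (D) and 56 to 59.1 Mb (E). Every peak of any of the 9 deposited lists that touched a window was taken. This gave 1055 peaks of 316415 in all, beside 15065 on the rest of chromosome 19, and no peak crossed a window edge. No annotation of the files' build was used here, so the label of the windows could not be checked against gene positions and no peak was tied to a gene.

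The cells were K562, a human erythroleukaemia line, all stably expressing the bacterial biotin ligase BirA and all treated with hemin for 48 h to start erythroid maturation. The control group carried BirA alone. In the other 2 groups the cells also carried recombinant zfp148 (ZBP-89) or zfp281 (ZBP-99) with an amino-terminal biotin acceptor motif of 23 amino acids, named bio-zfp148 and bio-zfp281, in clones chosen for levels near those of the endogenous proteins. Each group had 2 ChIP libraries and 1 input, and the authors called peaks in each library and in both libraries of a group joined, here called the pooled list.

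KRAB zinc finger proteins bind DNA through arrays of C2H2 zinc fingers and recruit the corepressor TRIM28 (KAP1) through the KRAB domain, and many of them silence retroelements. Their genes arose largely by tandem duplication and lie in clusters, most densely on chromosome 19, where the gene bodies are known to carry H3K9me3 and TRIM28. zfp148 and zfp281 are themselves C2H2 zinc finger proteins without a KRAB domain, and they bind G-rich DNA.

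A G-rich word was looked for in the promoters of the zinc finger genes of this chromosome, since no sequence under the peaks could be read. The word was GGGAGGGG, with its reverse complement CCCCTCCC on the other strand, and the promoters were those of RefSeq protein-coding genes (GRCh38.p14), 300 bases each, from 250 before to 50 after the start. It was found in 19 of 232 promoters of chromosome 19 genes with a zinc finger symbol (8.19%, 95% interval 5.00 to 12.5%). It was found in 216 of the 953 other promoters of chromosome 19 (22.7%, 20.04 to 25.5%), in 47 of 284 zinc finger promoters of other chromosomes (16.5%, 12.4 to 21.4%) and in 2713 of all 15843 promoters (17.1%). The median GC content was 60.2% in the chromosome 19 zinc finger promoters and 64% in the others of the chromosome. The word was thus less frequent at the zinc finger genes of this chromosome than at its other genes, and the intervals did not overlap. The zinc finger genes were chosen by symbol over the whole chromosome, not by window or by a KRAB domain. Of the 232, 213 held no match, 15 held 1, and 4 (ZNF561, ZNF579, ZNF580 and ZNF865) held 2. The bases before the start of ZNF579 and ZNF580 are shown as examples of the exceptions, 5′ to 3′ on the gene's strand with the matches in capitals. A match describes these letters and not a binding site. The peaks below were not compared with these promoters, whose build differs, so whether any peak lies on them is not known here.
ZNF579: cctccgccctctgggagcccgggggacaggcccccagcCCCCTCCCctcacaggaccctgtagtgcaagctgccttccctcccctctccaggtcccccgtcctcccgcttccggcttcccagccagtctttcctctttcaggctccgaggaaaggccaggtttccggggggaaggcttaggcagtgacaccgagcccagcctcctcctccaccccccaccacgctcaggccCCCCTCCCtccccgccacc
ZNF580: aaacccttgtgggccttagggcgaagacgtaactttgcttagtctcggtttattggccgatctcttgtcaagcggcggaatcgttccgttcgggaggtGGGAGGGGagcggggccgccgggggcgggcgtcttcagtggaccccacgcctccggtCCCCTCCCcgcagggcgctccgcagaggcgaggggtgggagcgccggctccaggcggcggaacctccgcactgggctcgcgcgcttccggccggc

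Apart from BirA replicate 1, the ChIP libraries were shallow once duplicates were removed. Before that the 4 libraries of tagged protein held 5697215 to 9561556 tags, BirA replicate 2 held 10270043 and BirA replicate 1 held 46248613. After the authors' removal of duplicates the 4 libraries of tagged protein held 810565 to 1570283 tags, BirA replicate 2 held 1080363 and BirA replicate 1 held 15956688. Nothing in the labels says that replicates came from separate cultures, so the p-values below measure only the spread between libraries, which may be technical. Intervals are exact 95% Poisson or binomial intervals and cover counting error only. The tags, fold enrichments and p of a peak are the authors' own values from the peak caller MACS. In bulk chromatin, binding in fewer cells and weaker binding in each cell cannot be told apart.

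Beside the rest of chromosome 19, peaks of both proteins were sparse in the windows, and so were peaks of the control. The pooled bio-zfp148 list held 173 peaks in the 12 Mb of the windows, or 14.4 per Mb (12.3 to 16.7), against 55.2 per Mb (53.1 to 57.4) on the remaining 47.1 Mb of the chromosome. The pooled bio-zfp281 list held 264, or 22 per Mb (19.4 to 24.8), against 89.9 (87.2 to 92.7). These densities were 3.83-fold and 4.09-fold lower than on the rest of the chromosome. The pooled BirA list held 146, or 12.2 per Mb (10.3 to 14.3), against 25.4 (24.0 to 26.9), a 2.09-fold difference in the same direction. The windows made up 20.3% of the chromosome and held between 3.66% and 11.5% of its peaks, according to the list.

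Each library showed the same direction. In bio-zfp148 the windows held 64 peaks in replicate 1, or 5.33 per Mb against 23.2 outside, and 84 in replicate 2, or 7 per Mb against 28.7. In bio-zfp281 they held 121 in replicate 1, or 10.1 per Mb against 46.5, and 28 in replicate 2, or 2.33 per Mb against 15.6. In BirA they held 144 in replicate 1, or 12 per Mb against 23.5, and 31 in replicate 2, or 2.58 per Mb against 11.9. The poorest of the 6 libraries in the windows, relative to the rest of the chromosome, was bio-zfp281 replicate 2 and the least poor was BirA replicate 1, which was also the deepest. Expressed as log2 of the density inside over the density outside, the 6 libraries averaged −2.05 ± 0.58 (SD, n = 6) and ran from −2.74 to −0.97. The ratio was below 0 in 6 of 6 libraries (exact two-sided sign-flip permutation test, p = 0.03125, the smallest that 6 libraries allow, and 0.1875 after Benjamini-Hochberg adjustment over the 6 tests of this report). The adjusted value did not pass 0.05, and leaving out any 1 library gave p = 0.0625 by the same exact permutation test, the smallest that 5 allow.

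**Figure D1:**
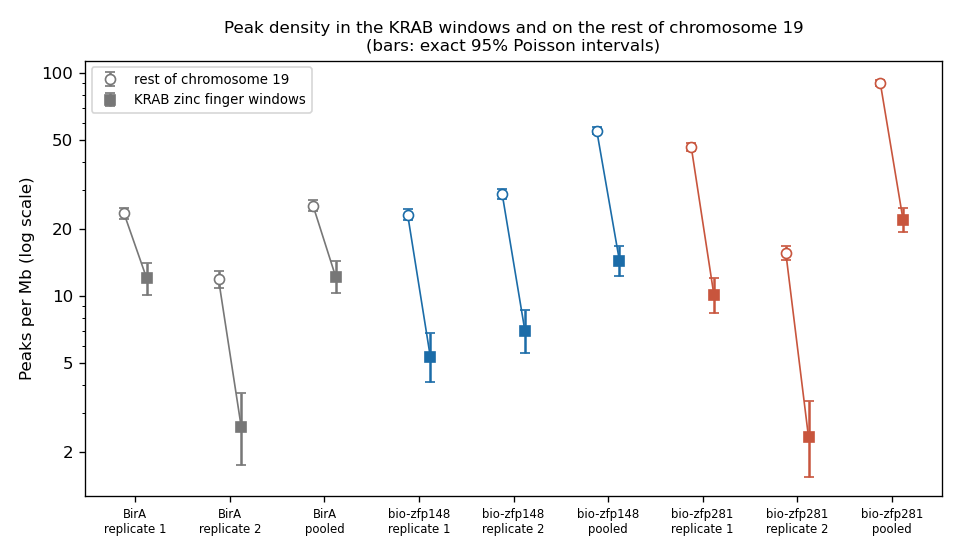
Peaks per Mb (log scale) in each of the 9 lists, with filled squares for the KRAB zinc finger windows and open circles for the rest of chromosome 19, joined within a list; bars are exact 95% Poisson intervals. The squares lie below the circles in all 9 lists, and the gap is narrowest in BirA replicate 1, at 12 against 23.5 per Mb.

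Set against the rest of the genome in place of chromosome 19, the windows differed less. On the rest of the genome the pooled bio-zfp148 list held 13.9 peaks per Mb and the pooled bio-zfp281 list 21.5 per Mb. The windows held 1.04 and 1.03 times those densities. For the single libraries of tagged protein this ratio lay between 0.761 and 1.21. In BirA it was 0.551 in replicate 1, 1.06 in replicate 2 and 0.658 in the pooled list. The lowest of the 9 ratios were those of BirA replicate 1 and of the pooled list that contains it.

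Whether the density in the windows, relative to the rest of chromosome 19, was lower for the tagged proteins than for the control was not settled by these libraries. The log2 ratio averaged −2.28 ± 0.32 (SD, n = 4) in the libraries of tagged protein and −1.58 ± 0.87 (SD, n = 2) in BirA, where replicates 1 and 2 stood at −0.97 and −2.20. The difference of −0.69 did not pass (exact two-sided permutation test over libraries, p = 0.4, adjusted 0.48, smallest possible 0.133). It was −0.08 without BirA replicate 1 and −1.31 without BirA replicate 2, so the 2 control libraries set its size. The ratio was −2.08 ± 0.06 (SD, n = 2) in bio-zfp148 and −2.47 ± 0.38 (SD, n = 2) in bio-zfp281. Their difference of 0.40 had p = 0.333 (adjusted 0.48), the smallest an exact permutation of 2 libraries against 2 can give, and was 0.13 without bio-zfp281 replicate 2.

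The 5 windows were not alike. Window A, next to the centromere, was the emptiest, with 21 pooled bio-zfp148 peaks (4.67 per Mb, 2.89 to 7.13) and 20 pooled bio-zfp281 peaks (4.44 per Mb, 2.71 to 6.86). These densities were 0.0845 and 0.0494 times those on the rest of the chromosome. BirA was also at its lowest there, with 15 pooled peaks or 3.33 per Mb (1.87 to 5.50). At the other end, window E held 93 bio-zfp148 peaks (30 per Mb, 24.2 to 36.8) and 124 bio-zfp281 peaks (40 per Mb, 33.3 to 47.7). Window E thus held 93 of the 173 bio-zfp148 peaks and 124 of the 264 bio-zfp281 peaks of the windows.

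In the pooled control list, windows C and E were close to the rest of the chromosome in density. The pooled BirA list held 28.8 peaks per Mb in C (18.2 to 43.1) and 24.2 per Mb in E (19.03 to 30.3), which were 1.13 and 0.954 times its density outside. The tagged proteins stayed below their own density outside in both, at 0.362 (bio-zfp148) and 0.445 (bio-zfp281) times in C and at 0.543 and 0.445 times in E. BirA replicate 2, of a depth like that of the tagged libraries, held 7.5 per Mb in C and 5.16 per Mb in E, or 0.632 and 0.435 times its density outside. In BirA replicate 1 the same ratios were 1.33 and 0.907. In window C, BirA replicate 2 held only 6 peaks (2.75 to 16.3 per Mb), an interval that took in its 11.9 per Mb outside. Its interval in window E (2.95 to 8.38 per Mb) did not, and the difference between the control libraries was not tested. Window D separated the 2 proteins most, with 50 pooled peaks of bio-zfp281 (31.3 per Mb, 23.2 to 41.2) and 16 of bio-zfp148 (10 per Mb, 5.72 to 16.2). The single libraries did not all show this, since D held 14 peaks in bio-zfp281 replicate 1 but 2 in replicate 2, beside 4 and 6 in the bio-zfp148 libraries. Window B was intermediate, at 13.5 and 19 per Mb for bio-zfp148 and bio-zfp281. The comparison of windows was chosen after their values were seen and was not tested.

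**Figure D2:**
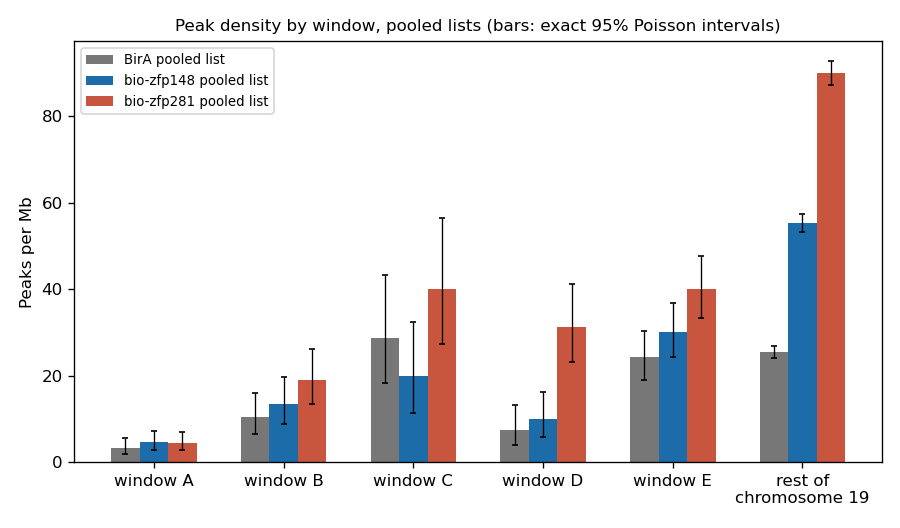
Peaks per Mb of the 3 pooled lists (BirA, bio-zfp148, bio-zfp281) in windows A to E and on the rest of chromosome 19; bars start at 0 and error bars are exact 95% Poisson intervals. The tagged proteins lie below the rest of the chromosome in every window and lowest in window A, at 4.67 and 4.44 per Mb, while BirA stands at 1.13 times its density on the rest in window C and 0.954 times in window E.

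Density was also read by distance from the window edges. In the flanks, at 250 to 500 kb outside an edge, the pooled lists held 66.2 peaks per Mb for bio-zfp148, 100 for bio-zfp281 and 29.3 for BirA. In the nearer flank, 0 to 250 kb outside, they held 45.8, 77.8 and 22.7 per Mb. In the first 100 kb inside an edge they held 31.1, 50 and 13.3 per Mb, where the starts of windows C and E alone gave 10 and 9 of the 28 bio-zfp148 peaks and 17 and 11 of the 45 bio-zfp281 peaks. Over the other 7 edges the same class held 12.9, 24.3 and 4.29 per Mb, and the start of window D held 0 bio-zfp148 peaks and 1 bio-zfp281 peak. A fall by steps just within the edge therefore rested on 2 of the 9 edges. Between 100 and 250 kb inside the pooled lists held 23.7, 34.1 and 20 per Mb. Between 250 and 500 kb inside they held 9.76, 16.6 and 13.7 per Mb. The tagged proteins were thus densest in the flanks, while the control had no steady order inside the windows. Beyond 500 kb the values were 12.1, 18.1 and 10.3 per Mb, a range that takes in the chromosome end, which was not counted as an edge. The flank past the far edge of window A held no pooled peak of either protein, the next one lying at chr19:28284117-28284459.

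**Figure D3:**
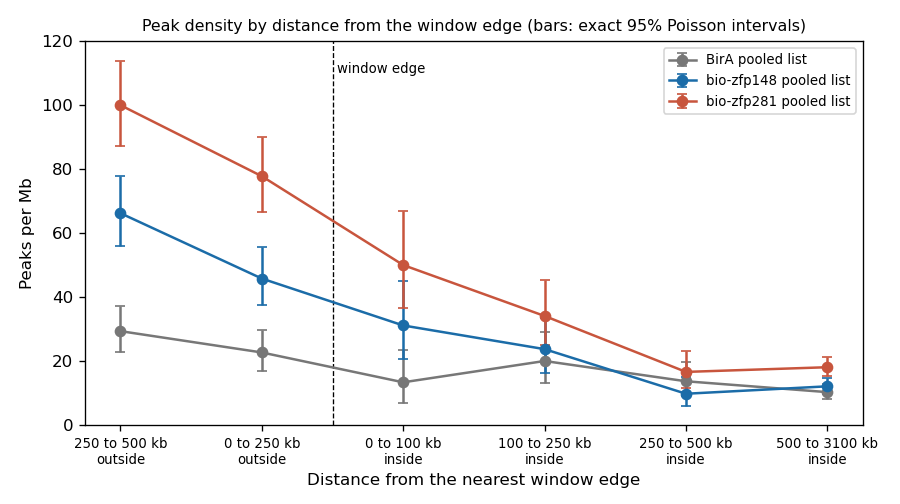
Peaks per Mb of the pooled lists against distance from the nearest window edge, in 2 classes outside and 4 inside; bars are exact 95% Poisson intervals and the dashed line marks the edge. bio-zfp148 goes from 66.2 per Mb in the outer flank to 9.76 per Mb at 250 to 500 kb inside, and BirA from 29.3 to 13.7.

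Many stretches of the windows held no peak. Of 120 stretches of 100 kb in the windows, 48 held no pooled bio-zfp148 peak (40%, 31.2 to 49.3%), against 53 of 438 on the rest of the chromosome (12.1%, 9.20 to 15.5%). For bio-zfp281, 42 were empty (35%, 26.5 to 44.2%) against 41 of 438 (9.36%, 6.80 to 12.5%). For BirA, 49 were empty (40.8%, 32.0 to 50.2%) against 58 (13.2%). At least 50% of the bio-zfp148 peaks lay in 13 of the 120 stretches, against 105 of 438 outside, and at least 50% of the bio-zfp281 peaks in 14, against 109. Fewer peaks per stretch leave more stretches empty by themselves, so these shares restate the lower density, and crowding beyond it was not tested.

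The richest stretches lay within 250 kb of a window edge or at the chromosome end. The stretch chr19:56100001-56200000 held 14 pooled peaks of bio-zfp148, 18 of bio-zfp281 and 11 of BirA. The last stretch of the chromosome, chr19:59000001-59097789, held 14, 21 and 8. The stretch chr19:44200001-44300000, the first of window C, held 10, 17 and 5, and chr19:56000001-56100000, the first of window E, held 9, 11 and 4. Windows A, B and D had no stretch among these 4. The control had several peaks in each of these 4, but not in every stretch rich in bio-zfp281. The stretch chr19:53400001-53500000 of window D held 9 pooled bio-zfp281 peaks, 2 of bio-zfp148 and 1 of BirA, and chr19:52600001-52700000 held 6, 1 and 0.

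The peaks that did occur in the windows held medians of tags that differed from those elsewhere on the chromosome by less than the spread between libraries. The median raw tags per peak, inside and outside, were 5.5 and 6 in bio-zfp148 replicate 1, 7.5 and 8 in replicate 2, 7 and 8 in bio-zfp281 replicate 1 and 7.5 and 7 in replicate 2. In BirA they were 16 and 22 in replicate 1 and 6 and 6 in replicate 2. The widest gap was that of BirA replicate 1. The log2 ratio of the medians averaged −0.13 ± 0.19 (SD, n = 6) and ran from −0.46 to 0.10 (exact two-sided sign-flip permutation test, p = 0.1875, adjusted 0.375). In the pooled lists the median fold enrichment over the local background was 10.6 both inside and outside for bio-zfp148, and 6.67 inside against 5.76 outside for bio-zfp281. Median widths were 511 and 525 bp for bio-zfp148 and 524 and 541 bp for bio-zfp281. The strongest peak in the windows held 257 tags in the pooled bio-zfp148 list and 203 in the pooled bio-zfp281 list, while outside the maxima were 599 and 569. Density was thus lower in 6 of 6 libraries and the median tags in 4 of 6, and a list keeps only what passed the caller's cutoff.

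The share of places met by the control was within 3.45 percentage points of that outside the windows in all 6 lists of tagged protein. Of the 173 places called in the pooled bio-zfp148 list, 40 met a peak of any of the 3 control lists (23.1%, 17.1 to 30.1%), against 24.6% outside and 23% over all chromosomes. Of the 264 called in the pooled bio-zfp281 list, 55 did (20.8%, 16.1 to 26.2%), against 21.5% outside and 22.4% over all chromosomes. In the single libraries the shares inside and outside were 29.7 and 32.0% in bio-zfp148 replicate 1, 31.0 and 32.6% in replicate 2, 32.2 and 30.1% in bio-zfp281 replicate 1 and 42.9 and 39.4% in replicate 2. The 2 proteins thus differed in sign, and the mean difference of 0.40 percentage points (n = 4) did not pass (exact two-sided sign-flip permutation test, p = 0.875, adjusted 0.875). Against BirA replicate 2 alone the share was lower inside in all 4 libraries, by a mean of −4.67 points (p = 0.125 by the same exact test, the smallest 4 libraries allow).

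The share met by the control varied between windows. It met 9 of the 16 pooled bio-zfp148 peaks in window C (56.3%) and 14 of 32 bio-zfp281 peaks (43.8%). In window E it met 24.7% and 24.2%, in window D 25% and 14%, and in window B 11.1% and 10.5%. In window A it met 1 of 21 bio-zfp148 peaks and 0 of 20 bio-zfp281 peaks. Window C, where BirA peaks were densest, was thus the window where most peaks of bio-zfp148 coincided with the control, and window A the one where fewest did.

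Fewer of the places of each protein were shared with the other in the windows than outside, a difference that the libraries could not bring past the threshold. For bio-zfp148, 91 of the 173 were met by a pooled peak of bio-zfp281 (52.6%, 44.9 to 60.2%), against 64.6% (62.7 to 66.4%) outside and 49.4% over all chromosomes. For bio-zfp281, 90 of the 264 were met by a pooled peak of bio-zfp148 (34.1%, 28.4 to 40.2%), against 39.4% (37.9 to 40.9%) outside and 32% over all chromosomes. The shares in the windows were thus close to the background of the genome, and below that of their own chromosome. In the single libraries the shares inside and outside were 68.8 and 81.4% in bio-zfp148 replicate 1, 79.8 and 81.5% in replicate 2, 56.2 and 57.7% in bio-zfp281 replicate 1 and 75 and 78.9% in replicate 2. The share was lower inside in 4 of 4 libraries, by a mean of −4.97 percentage points (exact two-sided sign-flip permutation test, p = 0.125, the smallest 4 libraries allow, adjusted 0.375). The size rested largely on bio-zfp148 replicate 1, without which the mean difference was −2.40. Peaks are denser outside, and the part of that density in the sharing was not tested.

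**Figure D4:**
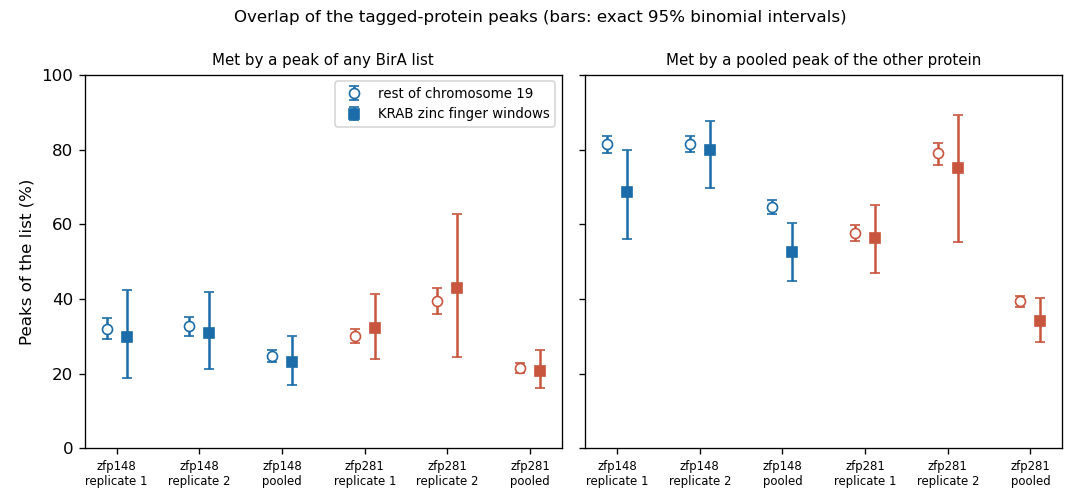
Share (%) of the peaks of each bio-zfp148 and bio-zfp281 list that overlap a peak of any BirA list (left) or a pooled peak of the other protein (right), with filled squares for the windows and open circles for the rest of chromosome 19; bars are exact 95% binomial intervals. On the left squares and circles differ by at most 3.45 points, and on the right the squares lie lower in all 6 lists.

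Agreement between replicates differed by group. In bio-zfp281, 23 of the 28 replicate 2 peaks in the windows met a replicate 1 peak (82.1%, 63.1 to 93.9%), against 79.2% outside. In bio-zfp148, 35 of the 64 replicate 1 peaks met a replicate 2 peak (54.7%, 41.7 to 67.2%), against 61.4% outside. In BirA, 4 of the 31 replicate 2 peaks met a replicate 1 peak (12.9%, 3.63 to 29.8%), against 22.9% outside. For each group the interval in the windows took in the value outside.

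Support of pooled peaks by both replicates was near that of the whole genome and lower than on the rest of chromosome 19. Both replicates supported 35 of the 173 bio-zfp148 peaks (20.2%), 1 replicate supported 71 and neither supported 67 (38.7%). For bio-zfp281, both replicates supported 23 of the 264 (8.71%), 1 supported 102 and neither supported 139 (52.7%). Over all chromosomes the shares supported by both were 19.3% and 10.3% of the 2 pooled lists in that order, and those supported by neither were 46.1% and 55.9%. On the rest of chromosome 19 both replicates supported 25.1% and 13.4%, and neither supported 37.5% and 47.0%. The interval in the windows for support by both took in the value outside for bio-zfp148 (14.5 to 27.0%) but not for bio-zfp281 (5.60 to 12.8%). Of those found in both replicates, the control met 14 of the 35 of bio-zfp148 (40%) and 12 of the 23 of bio-zfp281 (52.2%), against 42.7% and 51.0% over all chromosomes. A peak in both replicates and in no BirA list is called a site here, and the windows held 21 sites of bio-zfp148 and 11 of bio-zfp281. That was 12.1% of the bio-zfp148 peaks, against 14.3% outside and 11.1% over all chromosomes. It was 4.17% of the bio-zfp281 peaks, against 6.73% outside and 5.07% over all chromosomes. The share of peaks that became sites was therefore near the background for both proteins.

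Beside the rest of chromosome 19, sites were sparse in the windows, as peaks were. There were 1.75 bio-zfp148 sites per Mb (1.08 to 2.68) against 7.90 (7.12 to 8.74) outside, a 4.51-fold difference. For bio-zfp281 there were 0.917 sites per Mb (0.458 to 1.64) against 6.05 (5.37 to 6.80), a 6.60-fold difference. No site density was computed for the rest of the genome. The windows held 1.04 (bio-zfp148) and 1.03 (bio-zfp281) times the pooled peak densities there. The typical site held similar tags inside and outside, with a median of 29 against 31 tags in the bio-zfp148 sites and 43 against 39 in the bio-zfp281 sites. Sites lay in 3 of the 5 windows. Window E held 16 bio-zfp148 and 8 bio-zfp281 sites, C held 3 and 2, B held 2 and 1, and A and D held 0 of either protein (upper limits of 0.820 and 2.31 per Mb).

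Of the 21 bio-zfp148 sites, 7 were also bio-zfp281 sites (33.3%, 14.6 to 57.0%), against 44.6% outside and 41.3% over all chromosomes. Of the 11 bio-zfp281 sites, the same 7 were shared (63.6%, 30.8 to 89.1%), against 58.6% outside and 57.7% over all chromosomes. With so few sites the intervals span the values elsewhere. Counting any pooled peak of the other protein, 18 of 21 and 9 of 11 sites were met (85.7% and 81.8%), against 91.7% and 89.5% outside. Most sites of either protein therefore had at least a pooled call of the other at the same place. At the 7 shared sites the summits of the proteins lay a median of 78 bp apart (maximum 240 bp), against 44 bp at the 166 shared sites outside.

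Merged over all 9 lists, the peaks in the windows made up 478 separate places. Of these, 144 were called for bio-zfp281 alone (30.1%), 76 for bio-zfp148 alone (15.9%), 62 for both without BirA (13.0%) and 136 for BirA alone (28.5%). Of the 5859 places on the rest of the chromosome, the same shares were 37.5%, 15.1%, 18.1% and 13.3%, so BirA alone took a larger share in the windows. That share leaned on the deep BirA replicate 1, which had 144 peaks in the windows against 31 in replicate 2. The density inside was 0.511 times that outside in replicate 1 and 0.218 times in replicate 2. Shares by single BirA library were not computed. BirA was joined by bio-zfp281 at 20 places, by bio-zfp148 at 9 and by both at 31 (6.49%, against 9.80% on the rest). Most places were called rarely, both here and on the rest. In the windows 174 were in a pooled list only (36.4%, against 38.4% on the rest) and 217 in a single library (45.4%, against 36.9%). All 4 libraries of tagged protein called 15 places (3.14%, against 6.33% on the rest). No place was called in all 6 ChIP libraries or in all 9 lists, which held for only 0.768% and 0.751% of places on the rest.

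The 6 strongest sites shared by both proteins, none of which met a BirA peak, lay 4 in window E, 1 in B and 1 in C. The first, chr19:56594918-56595407, held 17 and 28 tags in bio-zfp148 replicates 1 and 2 and 75 in the pooled list (91.2-fold over local background), with 45, 22 and 112 tags (64.1-fold) in bio-zfp281. The summits of the proteins at this place, at 56595167 and 56595173, were nearly the same base. It was also the strongest bio-zfp281 site of the windows. For the tagged proteins, the folds here and below are those of the pooled list. The single libraries gave lower folds at this place. bio-zfp148 reached 17.5-fold in replicate 1 and 30.4-fold in replicate 2. The bio-zfp281 libraries reached 24.2-fold and 11.8-fold. Pooled lists kept up to 2 tags per position and single tagged libraries 1, so pooled and single values are not on the same scale.

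The second shared site, chr19:59025389-59026107, lay close to the chromosome end and was the strongest bio-zfp148 site, with 5, 22 and 39 tags (93.1-fold) in replicates 1 and 2 and the pooled list. In bio-zfp281 it held 10, 6 and 27 tags (18.5-fold). Its bio-zfp148 replicates differed most among the 6, and the call in replicate 1 rested on 5 tags. Replicates 1 and 2 alone reached 11.9-fold and 50-fold. The third, chr19:36545114-36545822, was the strongest site of window B for both proteins. It held 13, 23 and 57 tags (51.2-fold) in bio-zfp148 and 44, 16 and 99 tags (31.2-fold) in bio-zfp281, with summits at 36545464 and 36545466. This place and the first had the closest summits of the 6.

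The fourth, chr19:56091361-56092510, was the widest of the 6 and the one with most bio-zfp148 tags, at 24, 44 and 108 (89.4-fold), beside 27, 18 and 70 (15.5-fold) in bio-zfp281. The fifth, chr19:59084284-59084881, held 13, 14 and 37 tags (36.6-fold) in bio-zfp148 and 39, 7 and 81 (19.8-fold) in bio-zfp281. The sixth, chr19:44281640-44282524, was the strongest site of window C, with 9, 9 and 25 tags (12.6-fold) and 15, 6 and 43 (11.9-fold). In all 6 the bio-zfp281 replicate 1 count was above that of replicate 2, and in 5 the bio-zfp148 replicate 2 count was above that of replicate 1, which is the order of the library depths.

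**Figure D5:**
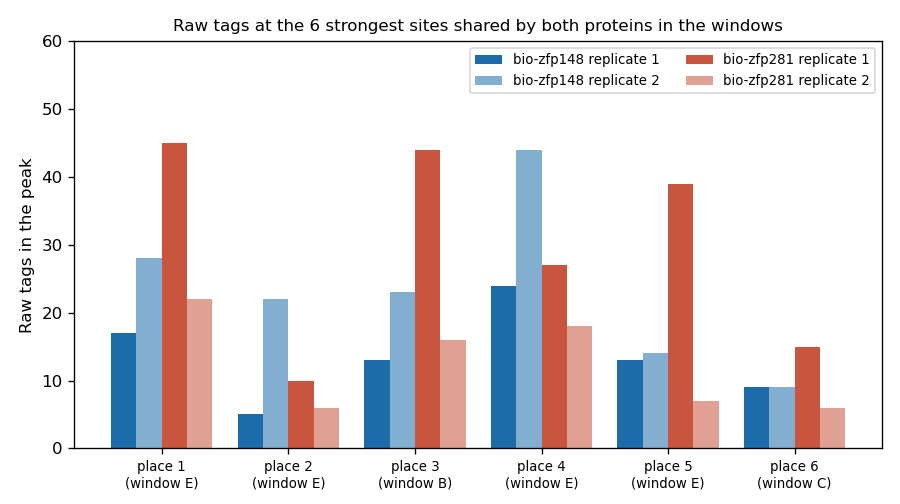
Raw tags in the peak at the 6 strongest shared sites, in the order of the text, for both libraries of bio-zfp148 and of bio-zfp281; bars start at 0 and each bar is 1 library. Every bar is above 0, from 5 tags in bio-zfp148 replicate 1 at the second site to 45 in bio-zfp281 replicate 1 at the first.

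The 3 strongest unshared sites of each protein all lay in window E. For bio-zfp148 the first was chr19:56173593-56174045, with 5 and 12 tags in replicates 1 and 2 and 32 in the pooled list (92.2-fold), where bio-zfp281 had a pooled call alone, of 7 tags (3.3-fold). The next, chr19:56504706-56505192, held 6, 5 and 15 tags (39.2-fold) and no bio-zfp281 call in any list. The third, chr19:59096516-59097368, held 18, 11 and 51 tags (28.7-fold), with bio-zfp281 calls of 7 tags in replicate 1 and 17 in the pooled list (6.29-fold). Only chr19:56504706-56505192 of these 3 was therefore without any call of the other protein, and it rested on few tags.

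For bio-zfp281 the strongest unshared site was chr19:56645156-56645899, with 21 and 18 tags in replicates 1 and 2 and 73 in the pooled list (38.6-fold), and with bio-zfp148 calls of 8 tags in replicate 2 and 20 in the pooled list (9.48-fold). The next, chr19:57790899-57792095, held 9, 9 and 31 tags (12.1-fold). The third, chr19:58694700-58695854, held 9, 5 and 31 tags (11.3-fold). Of these 3, chr19:57790899-57792095 and chr19:58694700-58695854 had no bio-zfp148 call in any list. A place without a call has no value in these files, so no difference in signal between the proteins was tested there.

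The strongest place of the windows by tags also met the control. At chr19:56652085-56653540 bio-zfp148 held 70, 106 and 257 tags in replicates 1 and 2 and the pooled list (75.1-fold), and bio-zfp281 held 101, 29 and 203 (48.7-fold). BirA replicate 1 held a peak of 18 tags (12.8-fold) and the pooled BirA list 1 of 22 tags (11.95-fold), and BirA replicate 2 had no call. The BirA summit, at 56652346, lay apart from those of the tagged proteins, at 56652966 and 56652967, and the false discovery rate of the pooled BirA peak was 78.0% by the authors' estimate. The same held at chr19:56110245-56111122, where bio-zfp148 held 14, 27 and 53 tags (51.7-fold) and bio-zfp281 held 32, 14 and 67 (38.1-fold). There BirA replicate 1 held 25 tags (22.1-fold) and the pooled BirA list 26 (19.5-fold), at a false discovery rate of 93.95%. High rates were not particular to these places, as the median of the pooled BirA list was 68.8% in the windows and 68.6% outside. Both places were left out of the sites by the rule that any BirA overlap removes a peak.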

How the data were processed

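ChIP-seq was measured in 6 ChIP and 3 input libraries of K562 cells. Reads were mapped to hg19 with Bowtie 1.0.0 and peaks called with MACS 1.4, per the submitters' processing notes. The file headers name MACS 1.4.0rc2, a p cutoff of 1e-05, and at most 1 tag per position in the 4 single libraries of tagged protein and BirA replicate 2, but 2 in BirA replicate 1 and the pooled lists. Each deposited peak has a raw tag count, its −log10 p times 10 (the p scale), a ratio of tags to local background (fold enrichment) and a percent FDR, all computed by the authors with MACS and not changed here. Inputs entered only through these calls.

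The tools were pandas 2.3.3, numpy 2.4.6, scipy 1.17.1 and matplotlib 3.10.9 under Python 3.11.15. Overlap meant at least 1 bp. Rest-of-chromosome lengths ran from position 1 to the highest peak end, 59097789, so densities outside include a stretch of 3.37 Mb with no peak in any list. A site was a pooled peak that met a peak in both replicates and none of the 3 BirA lists. Libraries were the unit of the exact sign-flip and label permutation tests, and 6 tests were adjusted together. The scripts were checked on made-up lists with known answers.

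Places were named as the 6 strongest shared sites (by the worse of their fold ranks), the 3 strongest unshared sites of each protein, the 3 strongest doubly supported peaks that met BirA (both proteins' peaks at 1 place count separately) and the strongest site per window. The windows and lists were chosen with earlier results of these data known. Promoters, edge distances, stretches of 100 kb, windows 1 by 1 and merged places were chosen after seeing the data. Naming genes at peaks and counting genes with peaks were not done, as no annotation of hg19 was used here. Alternatives were stricter p, fold, FDR and rank limits, an overlap of 50%, membership by summit, other BirA lists, other comparison regions and each replicate left out.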

Additional observations from a re-analysis of the deposited data

How the results depend on the processing

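Of 146 recomputed values, 112 kept their direction and side of the threshold, or stayed near their main value, and 34 did not. Some of the 112 were bound to stay. No peak crossed a window edge, so membership by summit repeated the main values. Leaving out the longest stretch with no peak could not move the differences between groups. The tests on 4 libraries, on 4 against 2 and on 2 against 2 could not reach 0.05, so only their direction could change. The lower density kept its direction throughout, from −2.40 with windows shortened by 100 kb to −1.81 at a fold enrichment of at least 10 (log2). The shortened windows and a comparison within 1 Mb of them (−1.99) were chosen after seeing the data. Leaving out 1 library gave −2.26 to −1.91, each at p = 0.0625 by the exact permutation test. The BirA overlap (0.40 points) reversed to −4.15 where the p scale had to reach 100, −7.41 for the strongest 5000 peaks, −0.57 against the long arm only and −4.67 with BirA replicate 2 alone, and ran from −0.62 to 1.29 with 1 library left out (−0.17 without bio-zfp281 replicate 1). For the strongest 5000 peaks the difference between the proteins reversed to −0.20, from 0.13 to 0.67 with 1 library left out, the sharing reversed to 0.61 points, the bio-zfp281 replicate overlap was 61.9% and bio-zfp148 had 8 sites. At a fold enrichment of at least 10, bio-zfp148 had 8 sites, 1 of them shared, bio-zfp281 had 1, shared, the replicate overlap was 0% in BirA and 100% in bio-zfp281, on 2 peaks each, the BirA overlap stood at 15.2 points (p = 0.125, exact permutation) and the sharing stood at −14.3 points. Judged against BirA replicate 1 alone, bio-zfp281 had 18 sites and 12 sites of either protein were shared, and against BirA replicate 2 or the pooled BirA list alone 11 were shared. With 1 library left out, sites ran from 21 to 58 for bio-zfp148 (7 to 15 shared) and from 11 to 82 for bio-zfp281 (7 to 16 shared), since fewer replicates then had to agree. The cause of the other changes was not tested. With the replicate number as a replicate block the differences were 0.40 between the proteins and −0.69 between tagged protein and BirA. Both had p = 0.5 by exact permutation, the smallest that 2 differences allow, so the call could not change. In replicates 1 and 2 they were 0.0858 and 0.709 between the proteins, and −1.20 and −0.189 between tagged protein and BirA. The replicate numbers were taken as shared labels only. Over 60 bins of 1 Mb, the deviation of replicate 1 from its group mean was correlated between groups. This gave 0.0765 for BirA and bio-zfp148, 0.0467 for BirA and bio-zfp281 and 0.201 for bio-zfp148 and bio-zfp281. The peak profiles of the libraries themselves were not correlated here. Replicate overlap has no value with a replicate left out. Depth limits the lists, since a place without a call has no value and the median peak in the windows held 5.5 to 7.5 tags in the libraries of tagged protein.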
